A study of Callithrix jacchus with 54 samples.

Results

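Of 8 listed genes of oocyte biology, 7 were among the 14812 genes measured in marmoset cells on their way from embryonic stem cells (cjESCs) to primordial germ cell-like cells (cjPGCLCs) and on to xenogeneic reconstituted ovaries (xrOvaries): OOEP, FOXR1, MIOX, NOBOX, GDF9, ZP3 and NLRP5. FIGLA was not analysed here. OOEP and FOXR1 were chosen by their rise in xrOvaries, so their levels there are given as a description with no test. MIOX, for which no reason of choice was stated, was treated in the same way in xrOvaries. The levels are TPM, an abundance per transcript length scaled to a constant total, and differences are those of log2(TPM + 1), which understate the change of weakly expressed genes. Of the 7 genes, 5 reached a log2 value of 1.5 in at least 1 library and could be tested, and GDF9 and NLRP5 did not. FOXR1 reached that value in xrOvaries only, so no test of it is given.

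An oocyte grows for a long time while it stores RNA and protein for the first divisions of the embryo. OOEP is a KH-domain protein of the subcortical maternal complex, which lies under the oocyte membrane and holds NLRP5 and KHDC3L as well. FIGLA and NOBOX are transcription factors of the first follicles, ZP3 is a protein of the egg coat that FIGLA is known to control, and GDF9 is a growth factor that the oocyte sends to its follicle cells. FOXR1 is a forkhead transcription factor. MIOX is myo-inositol oxygenase, the first enzyme of inositol breakdown, known best from the kidney and not from the oocyte.

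RNA was read from 27 conditions in 2 libraries each, described by the study as biological duplicates, and all cells were of 1 marmoset line, CMES40, with the reporters BLIMP1-tdTomato and NANOS3-eGFP. Cells labelled rtTA; tetO-BLIMP1; SOX17-GR; DD-TFAP2C (the labels write another number into the last name from library to library) were kept in DK20FA medium and taken for 12, 24, 48 and 96 h into BLSE (BMP4, LIF, SCF and EGF), BLSE with SOX17, which dexamethasone switches on, or LSE with SOX17, which lacks BMP4. Cells labelled wild type were kept in PESFA medium, pre-treated with activin A and the WNT agonist IM12, and taken for the same times into BLSE + IWR1, a WNT inhibitor, without or with BMS493, an inverse agonist of retinoic acid receptors. All induction media held a Rock inhibitor. cjESCs, pre-treated ones included, were sorted for TRA-1-60, and all cells were taken at 12 to 48 h and in BLSE at 96 h. The other samples at 96 h, the cjPGCLCs of BLSE + IWR1 at day 6 and the xrOvary cells at days 20, 40 and 70 were sorted for tdTomato. xrOvaries were made from day 6 cjPGCLCs and mouse fetal gonadal somatic cells from which mouse germ cells had been removed. According to the paper they were held first with retinoic acid and later in media with fetal calf serum. Time, the mouse tissue and these culture steps thus cannot be told apart in xrOvaries. The medium, the transgenes and the pre-treatment also differ together between the starting conditions. According to the paper dexamethasone was added to enforce SOX17 expression. Dexamethasone and SOX17 thus cannot be told apart where a SOX17 condition is set against BLSE or cjESCs.

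The libraries held between 10146 and 12688 genes above 0, and replicates correlated across genes with r between 0.977 and 0.994. TPM keep no read totals, so the depth is unknown. Of 8 germ cell markers, PRDM1, TFAP2C, NANOS3, MAEL, PIWIL2 and SYCE3 were above 0 in all 6 xrOvary libraries, DAZL in 5 and DDX4 in 4. The 8 summed to between 923 and 1127 TPM in xrOvaries, with TFAP2C alone between 549 and 730 TPM, against sums of 1400 and 1578 TPM at day 6. NANOS3 was lower at day 70 than at day 6 (log2 difference −2.05, adjusted p = 3.9e-07, limma). The 7 measured markers of gonadal somatic cells summed to between 0.73 and 3.53 TPM in xrOvaries, with NR5A1 and NR2F2 listed at 0 in all 6 libraries. NR5A1 was at 0 in all 54 libraries of the series, however. NR2F2 was at 0 in both libraries of day 6 as well, where the sums were 1.37 and 2.77 TPM. Over 7 fibroblast markers the sums were between 20.1 and 34.9 TPM in xrOvaries but reached 4712 TPM in pre-treated cjESCs, 2958 TPM in cjESCs in PESFA and 1934 TPM in BLSE at 96 h. These sums rest on marmoset gene models, and the share of mouse reads among them was not tested. In such bulk samples, fewer cells of a type and less RNA per cell cannot be told apart.

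OOEP (gene 100413895) had its highest level in xrOvaries at day 70. It stood at 1.2 and 0 TPM in cjPGCLCs at day 6 and at 0.63 and 0 TPM in xrOvaries at day 20. At day 40 it stood at 5.05 and 7.2 TPM, and at day 70 at 48.2 and 37 TPM. The day 6 and day 20 libraries overlapped, and the day 40 libraries lay above both and below day 70. The mean was 6.13 ± 1.52 TPM at day 40 and 42.6 ± 7.9 TPM at day 70 (mean ± SD, n = 2 libraries here and below), a ratio of 6.96. In the order of all genes by mean TPM, OOEP moved from place 10496 of 14812 at day 20 to 6524 at day 40 and 2834 at day 70.

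FOXR1 (gene 100395252) was above its day 6 level in both libraries at day 20, when those of OOEP still overlapped with day 6. It stood at 0 and 0.53 TPM at day 6, and at 12.1 and 14.9 TPM at day 20. At day 40 the libraries held 29.3 and 32.2 TPM, and at day 70 they held 31.1 and 38 TPM. All 6 xrOvary libraries lay above all 48 other libraries, of which 27 were listed at 0 and the highest, a pre-treated cjESC library, was at 1.35 TPM. Between day 20 and day 40 the libraries did not overlap, with a ratio of means of 2.28, whereas those of day 40 and day 70 did, with a ratio of 1.12. FOXR2, the other gene of the FOXR pair, was listed at 0 in all 6 xrOvary libraries and at no more than 0.39 TPM elsewhere.

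MIOX (gene 100401692) had the highest mean TPM of the 7 genes in all 27 conditions and was above 0 in all 54 libraries. In cjPGCLCs at day 6 it was at its lowest, 2.96 and 2.87 TPM. It was at 16.5 and 12.2 TPM at day 20, 45.3 and 59 TPM at day 40, and 98.8 and 105.6 TPM at day 70. No 2 neighbouring days overlapped, and the mean at day 70 was 35.1 times that at day 6. Unlike FOXR1, MIOX did not separate xrOvaries from the other cells, since 4 libraries at 24 and 48 h of BLSE + IWR1 held between 56.4 and 83.9 TPM.

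**Figure D1:**
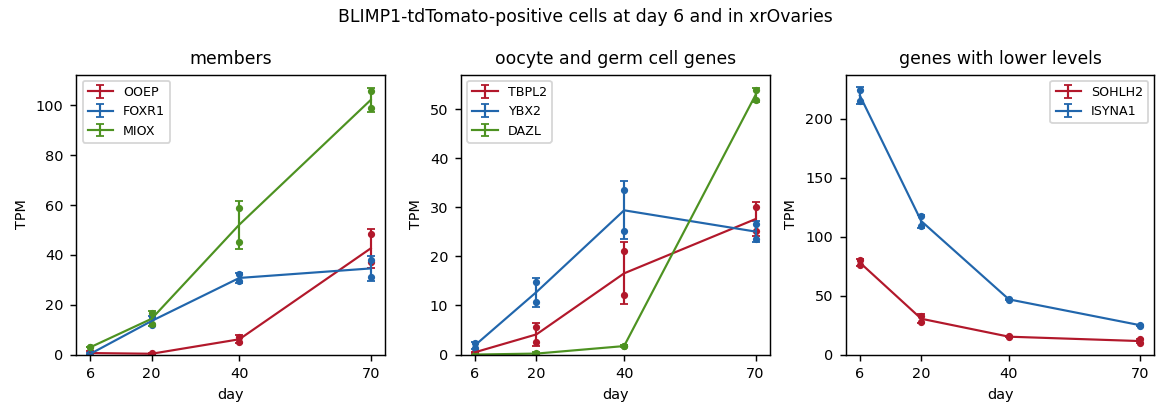
TPM (y axis, linear, from 0) against day (x axis) for sorted cells, cjPGCLCs of day 6 and xrOvary cells of days 20, 40 and 70; points are libraries, lines join means and bars are SD of 2 libraries. FOXR1 was at 13.5 TPM by day 20, OOEP at 42.6 TPM only at day 70, and SOHLH2 and ISYNA1 had their lowest levels at day 70.

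The remaining oocyte genes of the list stayed at or near 0. NOBOX (gene 100398487) was listed at 0 in all 6 xrOvary libraries, and before aggregation, at day 6, it stood at 3.18 and 1.48 TPM. The difference of the log2(TPM + 1) values from day 6 had an adjusted p of 1.65e-06 at day 20 and 7.22e-07 at day 70 (limma, Benjamini-Hochberg). With 0 in xrOvaries this difference could not exceed the day 6 mean of 1.69, which is under the 4-fold threshold of a call. A call was therefore out of reach, and no fold in TPM is given. ZP3 was at 3 and 1.96 TPM at day 20, 1.56 and 3.05 TPM at day 40, and 2 and 0.29 TPM at day 70, against 0.41 and 0 TPM at day 6. Its difference from day 6 was 1.54 ± 0.47 (log2 ± SE, adjusted p = 0.0115, limma) at day 20 and 0.73 (95% interval −0.23 to 1.68, adjusted p = 0.229) at day 70, and neither was called. GDF9 (gene 100405436) did not pass 1.05 TPM in any library and NLRP5 (gene 103790711) did not pass 0.23 TPM, with 41 of 54 libraries at 0.

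**Figure D2:**
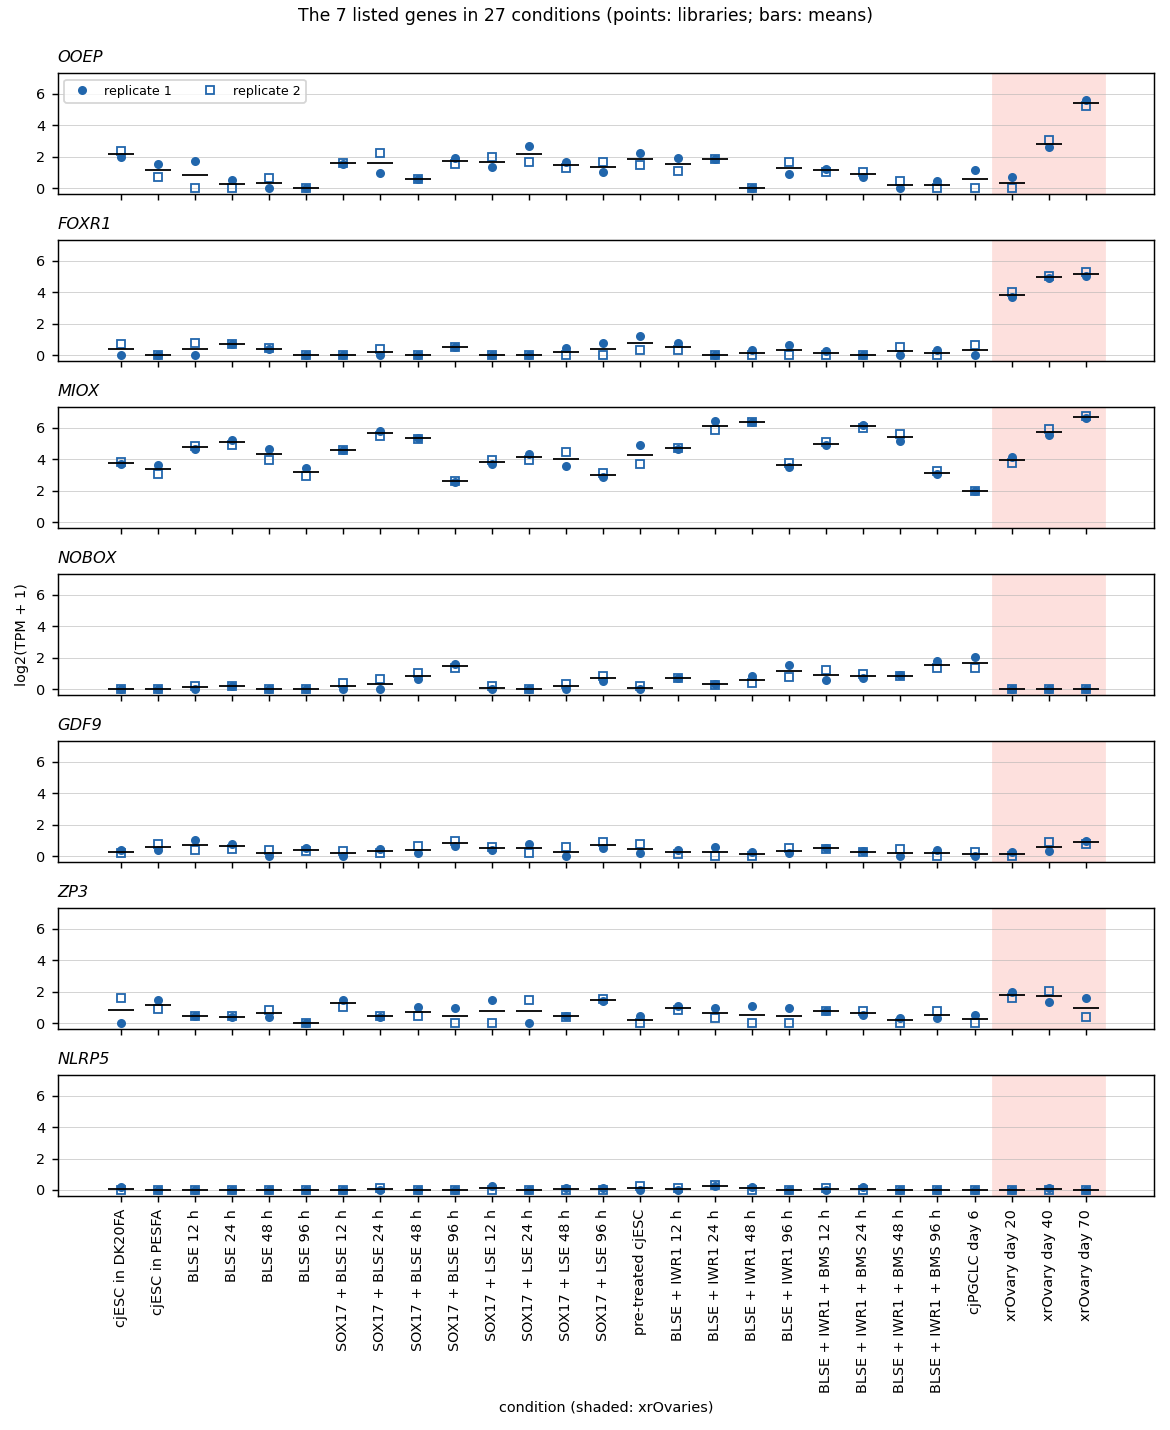
log2(TPM + 1) (y axis) of the 7 genes in 27 conditions (x axis), with filled circles for replicate 1, open squares for replicate 2 and bars for means; xrOvaries are shaded. FOXR1 was above 1.35 TPM in the shaded conditions only, OOEP passed 5.36 TPM at days 40 and 70 only, and NOBOX was at 0 in all shaded libraries.

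The 7 genes were set beside a panel of 39 oocyte genes that holds them, the subcortical maternal complex, the zona pellucida, transcription factors, growth factors and stored transcripts, of which 22 were in the table. Without OOEP, FOXR1 and MIOX, 19 panel genes were left and 13 could be tested. A gene was called when it differed more than 4-fold at an adjusted p under 0.01 and the mean log2 value over both groups was above 1.5. At day 20 against day 6, YBX2 was the 1 gene called, and it was higher. At day 40 TBPL2 and YBX2 were called as higher and SOHLH2 as lower, and the same 3 genes were called in the same direction at day 70. At an adjusted p under 0.05 with no threshold of size, 7 of the 13 genes differed at day 20, with YBX2, TBPL2, ZP3 and DPPA3 higher and NOBOX, SOHLH2 and ZAR1 lower (limma). By the full rule of a call, 2.3% of all 11197 genes tested were called at day 20, 3.63% at day 40 and 5.39% at day 70. The share of all genes with an adjusted p under 0.05 alone was not counted, so the 7 genes cannot be set against it. The median difference of the panel was −0.09 at day 70, and that of all genes was −0.20.

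TBPL2, a TBP relative of the oocyte, was at 0.4 and 0.54 TPM at day 6, 2.5 and 5.71 TPM at day 20, 12.1 and 21 TPM at day 40, and 25.2 and 30 TPM at day 70. Its libraries did not overlap between any of these days. The difference from day 6 was 1.72 ± 0.33 at day 20, which was not called, 3.53 ± 0.33 at day 40 (adjusted p = 7.9e-11) and 4.28 ± 0.33 at day 70 (log2 ± SE, adjusted p = 3.2e-13, limma). When only the 4 libraries of the comparison were fitted, the adjusted p at day 40 was 0.0102 and the call was lost.

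YBX2, which binds stored messenger RNA in germ cells, was at 1.38 and 2.43 TPM at day 6, 14.8 and 10.6 TPM at day 20, 33.6 and 25.2 TPM at day 40, and 26.5 and 23.6 TPM at day 70. All 6 xrOvary libraries lay above day 6, and days 40 and 70 overlapped. The differences from day 6 were 2.25 ± 0.29 at day 20 and 3.19 ± 0.29 at day 70 (adjusted p = 1.2e-07 and 1.4e-11, limma). Without day 6 replicate 1, the day 20 difference was 1.98 and not called, and with only the 4 libraries of the comparison fitted its adjusted p was 0.0468.

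SOHLH2, a transcription factor of early oocytes, moved in the other direction. It stood at 75.8 and 80.3 TPM at day 6, 27.7 and 33 TPM at day 20, 14.9 and 15.4 TPM at day 40, and 9.97 and 12.9 TPM at day 70. The day 70 libraries were the lowest of these, and the difference from day 6 was −2.68 ± 0.15 (adjusted p = 8.2e-17, limma). Its partner SOHLH1 was at 5.04 and 0 TPM at day 20 and 0.58 and 3.09 TPM at day 70, with a difference of 0.32 from day 6 (adjusted p = 0.67).

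**Figure D3:**
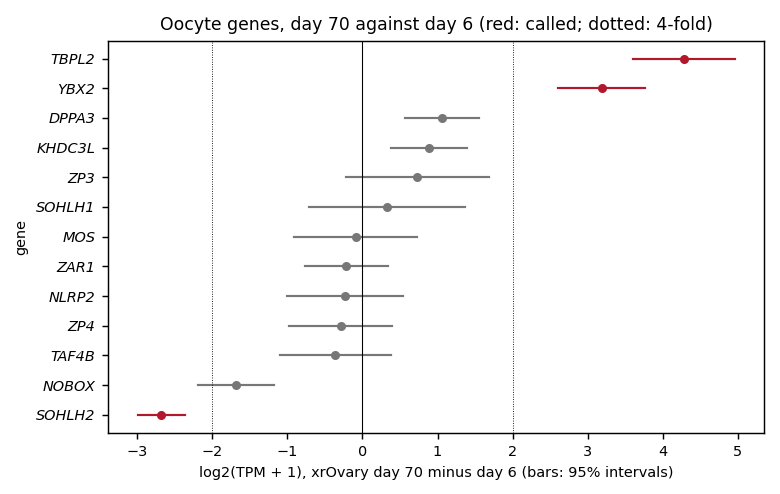
Difference of log2(TPM + 1) between xrOvaries at day 70 and cjPGCLCs at day 6 (x axis) for the 13 tested panel genes (y axis) other than OOEP, FOXR1 and MIOX; dots are estimates from limma, lines 95% intervals, red marks called genes and dotted lines 4-fold. TBPL2 (4.28) and YBX2 (3.19) lay above the threshold and SOHLH2 (−2.68) below it.

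Between successive xrOvary days no panel gene was called, at day 40 against day 20 (0.205% of all genes called) or at day 70 against day 40 (0.214%). At an unadjusted p under 0.05 there were 3 such genes in each comparison (limma). At an adjusted p under 0.05 there were 3 in the first, SOHLH2, TBPL2 and YBX2, and 0 in the second. The share of all genes at these limits was not counted. Among the germ cell markers, by contrast, DAZL, an RNA-binding protein of germ cells, was called at day 70 against day 40, with 51.9 and 53.9 TPM after 1.64 and 1.81 TPM (difference 4.31 ± 0.33, adjusted p = 1e-11, limma). OOEP and MIOX, described with no test, had their largest steps in mean TPM at the same interval, and FOXR1 and TBPL2 did not. On the log2 scale OOEP rose by 2.46 from day 20 to day 40 and by 2.62 from day 40 to day 70. These steps were 1.79 and 0.97 for MIOX, and 1.21 and 4.31 for DAZL.

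OOEP was set beside other proteins of its complex and family. KHDC3L, its partner in the subcortical maternal complex, was at 319.6 and 340.7 TPM at day 20 and 502 and 479 TPM at day 70, against 289 and 243 TPM at day 6. Its difference at day 70 was 0.89 ± 0.25 (adjusted p = 0.0039, limma) and was not called. DPPA5, a further KH-domain protein, was at 551 and 525 TPM at day 6 and 621 and 592 TPM at day 70 (difference 0.17, adjusted p = 0.42). PADI6 did not pass 0.62 TPM in any library and NLRP2 did not pass 3 TPM. The mean at day 70 was 490.8 TPM for KHDC3L and 42.6 TPM for OOEP, and no other measured member of the complex was above 1.74 TPM in xrOvaries.

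KHDC3L and DPPA5 are also the nearest genes on one side of OOEP in the RefSeq gene order of another marmoset assembly, and DDX43, CGAS and MTO1 lie on its other side. None of these 5 genes was called at day 70 against day 6, where 5.39% of all genes were, so few calls are to be had among so few genes. Their differences ran from −0.43 for MTO1 to 0.89 for KHDC3L. BCL9L, CENATAC and TRAPPC4, the measured neighbours of FOXR1, differed by −0.45, 0.13 and −0.15 and were not called either. Next to MIOX, LMF2 differed by 1.31 ± 0.22 (adjusted p = 6.3e-06, limma), which is below 4-fold, and ADM2, SBF1, NCAPH2 and SCO2 differed by 0.62, 0.02, 0.18 and −0.24 and were not called. The neighbours were looked up after the values of the 7 genes had been seen.

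Inositol genes were read beside MIOX. ISYNA1, which makes inositol from glucose phosphate, was at 215 and 225 TPM at day 6, 109 and 117 TPM at day 20, 46.7 and 46.9 TPM at day 40, and 24.5 and 25.2 TPM at day 70. It fell by 3.09 on the log2 scale at day 70 (SE 0.14, adjusted p = 1e-19, limma), and the day 70 libraries were the lowest of all 54. The phosphatases IMPA1 and IMPA2, which release free inositol, differed from day 6 by −0.23 and 0.29 at day 70, and the transporters SLC5A3 and SLC2A13 by 0.76 and −0.50, and none of these 4 was called. Of the 5 other inositol genes tested, ISYNA1 was thus the 1 called, at day 40 (3.63% of all genes called) and day 70 (5.39%).

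**Figure D4:**
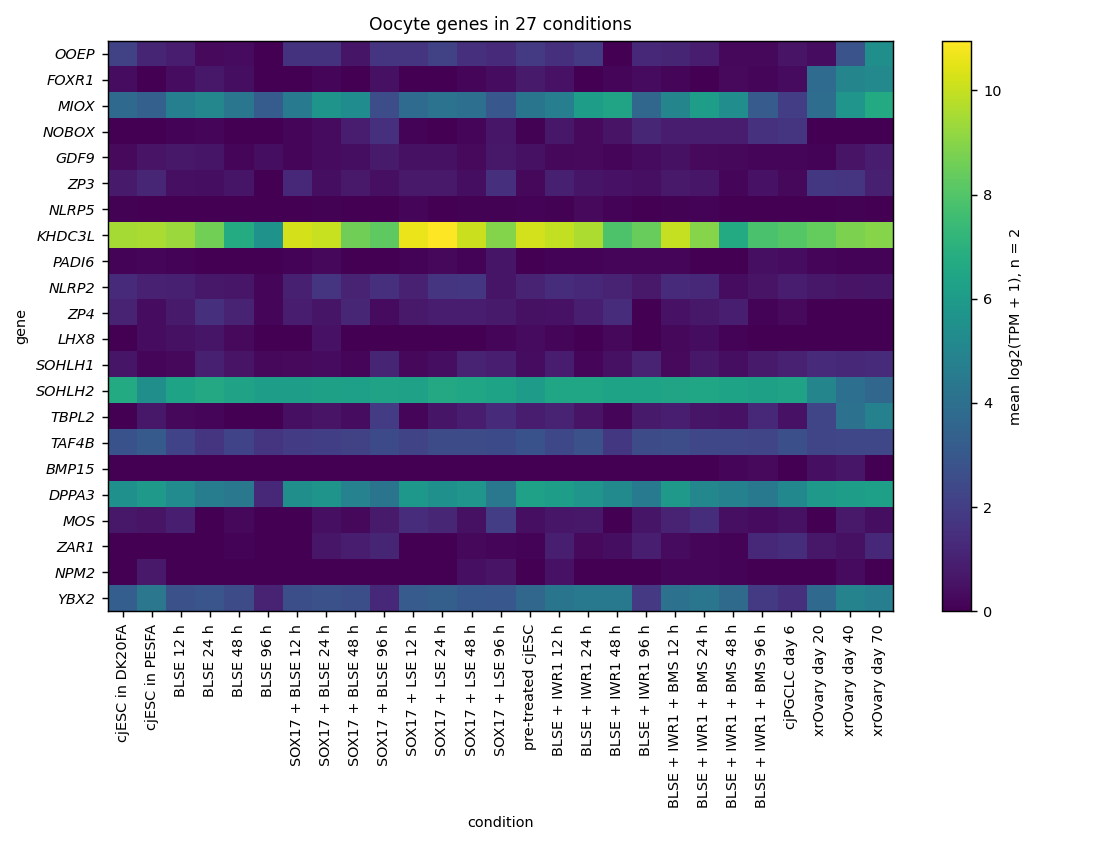
Mean log2(TPM + 1) of 2 libraries (colour, from 0) for the 22 oocyte genes in the table (y axis) in 27 conditions (x axis). KHDC3L, SOHLH2 and DPPA3 were present from the cjESCs on, whereas FOXR1 and TBPL2 had their highest levels in xrOvaries.

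Over the 27 condition means of log2(TPM + 1), the genes whose pattern was most like that of OOEP were STK32A (Pearson r = 0.915), TOPAZ1 (0.852), SHOC1 (0.85), DAZL (0.824) and TGIF2LX (0.805). STK32A, a kinase, was at 22.2 and 16.7 TPM at day 70 and at 3.75 and 3.37 TPM at day 40. TOPAZ1 and SHOC1, germ cell genes of meiosis, were at 21.4 and 22 TPM and at 3.35 and 3.28 TPM at day 70. STK32A, TOPAZ1 and SHOC1, like OOEP, were higher at day 70 than at day 40 in both libraries. They were chosen by likeness over conditions that include these days, so this shared rise is no separate result.

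For FOXR1 the most alike were DBX2 (r = 0.971), DUXA (0.967), LRRC31 (0.964), BHMT2 (0.964) and ELAVL2 (0.959). DUXA, a homeobox gene, was at 16.7 and 12.8 TPM at day 20 and 34.5 and 41.8 TPM at day 70, and DBX2, another homeobox gene, at 10.3 and 14.9 TPM and at 9.31 and 12.6 TPM. DBX2, DUXA, LRRC31, BHMT2 and ELAVL2 were above 0 in all 6 xrOvary libraries. FOXR1 itself came at place 214 among the genes like OOEP (r = 0.582), and MIOX at place 1666 (r = 0.301). All these r values, and the xrOvary levels of the genes chosen by them, rest on the same libraries and are given as a description.

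Outside xrOvaries, over 24 condition means, OOEP was most like ZNF605 (r = 0.851), SERINC5 (0.846), ZNF480 (0.815), its neighbour DDX43 (0.809) and DCAF17 (0.809), none of which was among the 5 above. The closest gene to FOXR1 was then ADAT2 (r = 0.607), followed by TEX26 (0.563), NAP1L1 (0.54), SOHLH1 (0.514) and TRPA1 (0.508). FOXR1 was at 1.35 TPM or less in these conditions, so these last values describe a pattern close to 0.

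Before xrOvaries, OOEP was low in all conditions. In cjESCs in DK20FA it was at 2.87 and 4.05 TPM, and in PESFA at 1.9 and 0.65 TPM. Its highest library outside xrOvaries was at 5.36 TPM, at 24 h of SOX17 + LSE, which lay above 1 of the day 40 libraries. In the order of its 27 condition means, day 70 was the 1 condition set apart from the next, and the 25 further pairs of neighbours overlapped. OOEP was listed at 0 in both libraries at 96 h of BLSE, and at 2.71 and 1.85 TPM with SOX17 + BLSE.

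The induction comparisons set no xrOvary group against another, though the xrOvary libraries entered the common fit and its estimate of the spread. OOEP, MIOX, NOBOX and ZP3, which reached the log2 value of 1.5 outside xrOvaries as well, were tested in them. At 96 h against the cjESCs, 0 of these 4 genes were called in BLSE (6.12% of all genes called), SOX17 + LSE (4.57%), SOX17 + BLSE (6.73%), BLSE + IWR1 + BMS (6.87%) and BLSE + IWR1 (6.57%). For NOBOX and ZP3 the mean log2 value over both groups was not above 1.5 in any induction comparison, so they could not be called. At 96 h against cjESCs OOEP did not meet this limit in BLSE, BLSE + IWR1 and BLSE + IWR1 + BMS. In both conditions with IWR1 its adjusted p was not under 0.05 either (limma). For OOEP in BLSE the difference from cjESCs had an adjusted p of 1.6e-04 (limma), and only the mean limit was not met. No fold is given because both libraries at 96 h were at 0. In SOX17 + BLSE against BLSE at 96 h (8.68% called), OOEP differed with an adjusted p of 0.0014 (limma). It could not be called there, since its mean log2 value over both groups was again not above 1.5. The BLSE cells were unsorted, and fibroblast markers summed to 1934 and 1248 TPM in them against 76.8 and 77.6 TPM in the sorted SOX17 + BLSE cells; their part in the difference was not tested.

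NOBOX had its 4 highest means in cells sorted for tdTomato before aggregation, at 96 h of 3 inductions and at day 6. It was listed at 0 in all 4 libraries of cjESCs in DK20FA and PESFA. It stood at 2.08 and 1.55 TPM at 96 h of SOX17 + BLSE, 1.87 and 0.73 TPM in BLSE + IWR1, 2.43 and 1.51 TPM in BLSE + IWR1 + BMS, and 3.18 and 1.48 TPM at day 6. Both libraries of each of these conditions were above the cjESCs. The difference from cjESCs had an adjusted p of 5.1e-06 in SOX17 + BLSE and 1.8e-04 in BLSE + IWR1 (limma). The adjusted p was 2.5e-06 with BMS493 and 4.9e-07 at day 6 (limma), and none of these differences was called. With the cjESCs at 0, the log2(TPM + 1) differences could not exceed the later means, the highest of which was 1.69, under 4-fold. In the sorted cells of SOX17 + LSE at 96 h, NOBOX was lower, at 0.45 and 0.75 TPM, and its mean was below that of 5 conditions in which all cells were taken. There it differed from cjESCs with an adjusted p of 0.027 and from SOX17 + BLSE by −0.82 (adjusted p = 0.025, limma), again without a call. In BLSE alone, without SOX17, NOBOX was at 0 in both libraries at 96 h.

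FOXR1 was close to 0 throughout the induction. At day 6 it was at 0 and 0.53 TPM, and in cjESCs in PESFA at 0 in both libraries. ZP3 was at 2.06 TPM or less before xrOvaries, and at day 6 it differed from the cjESCs by −0.93 (95% interval −1.88 to 0.03, adjusted p = 0.0928, limma).

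During induction MIOX had its highest mean at 24 or 48 h and its lowest at 96 h in each condition. All cells were taken at 12 to 48 h, whereas those at 96 h were sorted for tdTomato except in BLSE. The part of the sorting in the low levels at 96 h was not tested. In BLSE it was at 24.1 and 27.7 TPM at 12 h, 36.8 and 28.8 TPM at 24 h, 24.4 and 14.5 TPM at 48 h, and 9.7 and 6.76 TPM at 96 h. In SOX17 + BLSE it was at 23 and 22.6 TPM, 54.7 and 44.3 TPM, 40.2 and 37.4 TPM, and 4.78 and 5.21 TPM at the same times. Its start, cjESCs in DK20FA, held 11.7 and 13.2 TPM. The libraries at 24 and 48 h of SOX17 + BLSE thus lay above the start and those at 96 h below it.

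In SOX17 + LSE, without BMP4, MIOX was at 11.8 and 14.5 TPM at 12 h, 19.3 and 14.7 TPM at 24 h, 10.9 and 21.1 TPM at 48 h, and 6.4 and 7.58 TPM at 96 h. In BLSE + IWR1 it was at 24.3 and 25.5 TPM, 83.9 and 56.4 TPM, 82.8 and 81.5 TPM, and 10.1 and 12.6 TPM. With BMS493 added it was at 29.1 and 32.5 TPM, 71.2 and 63.4 TPM, 35 and 47.5 TPM, and 7.17 and 8.33 TPM. The mean level at 24 and 48 h was lowest without BMP4 and highest in BLSE + IWR1, whose libraries at 24 h overlapped with those with BMS493.

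**Figure D5:**
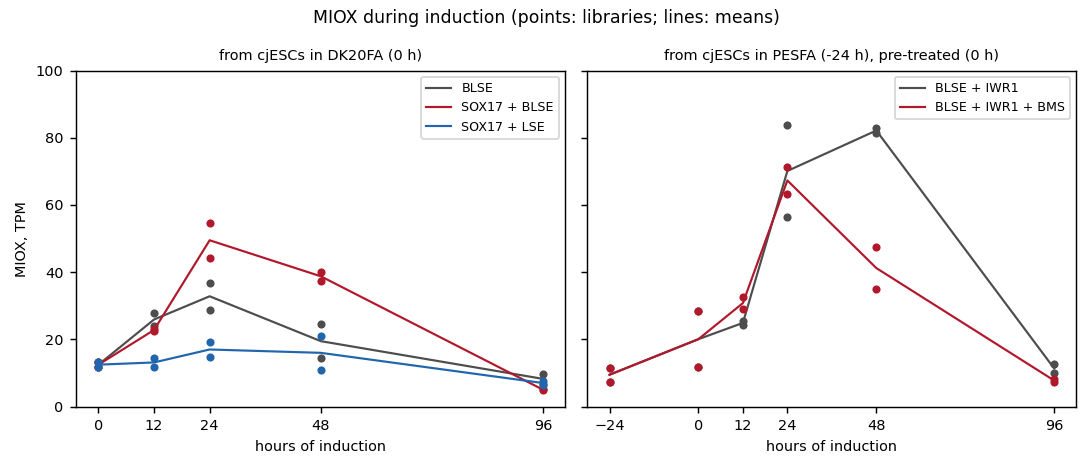
MIOX in TPM (y axis, linear, from 0) against hours of induction (x axis), on the left from cjESCs in DK20FA and on the right from cjESCs in PESFA with the pre-treated cells at 0 h; points are libraries and lines join means of 2. BLSE + IWR1 reached 82.2 TPM at 48 h and SOX17 + LSE did not pass 21.1 TPM.

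Comparisons at 48 h, where all cells were collected, were added after these values had been seen. MIOX rose in BLSE + IWR1 against cjESCs in PESFA, by 3.02 ± 0.28 on the log2 scale (adjusted p = 7.2e-11, limma), and was the 1 panel gene called there (3.13% of all genes called). Fitted on the 4 libraries of the comparison alone, the adjusted p was 0.025 and the call was lost. Fibroblast markers summed to 2958 and 1711 TPM in these cjESCs against 104 and 121 TPM at 48 h of BLSE + IWR1, and 4 of the 7 were called as lower. The same cjESCs are the reference of BLSE + IWR1 at 96 h, without and with BMS493, and of day 6, and the part of these markers in any of the differences was not tested. In SOX17 + BLSE against cjESCs in DK20FA it differed by 1.56 ± 0.28 (adjusted p = 2.7e-05) without a call (3.48% called). SOX17 + BLSE lay above BLSE by 1 ± 0.28 (adjusted p = 0.0068, with 2.02% of genes called), and SOX17 + LSE below SOX17 + BLSE, with a difference of −1.29 ± 0.28 (adjusted p = 0.0011, with 1.02% called). With BMS493 the difference was −0.99 ± 0.28 (adjusted p = 0.017, with 0.241% called). In each of the last 4 comparisons both libraries of one condition lay above both of the other, and the differences were below 4-fold.

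At day 6 MIOX lay below the cjESCs in PESFA, with a difference of −1.39 ± 0.28 (adjusted p = 6.8e-05, limma), and below BLSE + IWR1 at 96 h, with −1.65 ± 0.28 (adjusted p = 2.1e-04). Neither was a call, in comparisons that called 7.99% and 0.161% of all genes. OOEP, NOBOX and ZP3 could not be called in them, since their mean log2 values over both groups were not above 1.5. The xrOvaries therefore began from the lowest MIOX level of the 27 conditions. At 96 h the change from cjESCs was −1.17 in SOX17 + BLSE and 0.26 in BLSE + IWR1, and the difference between both changes was 1.43 ± 0.40 (adjusted p = 0.0088, limma), in a comparison that called 2.12% of all genes and none of the panel.

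Further comparisons left the tested members without a call: SOX17 + LSE against SOX17 + BLSE at 96 h (0.768% of all genes called), BMS493 at 96 h (0.0357%), the pre-treatment (0.0357%) and PESFA against DK20FA (2.04%). Between PESFA and DK20FA the transgenes differ together with the medium. The limit on the mean prevented a call of NOBOX and ZP3 in all of these, and of OOEP with BMS493 and after pre-treatment. After pre-treatment MIOX was at 28.3 and 11.8 TPM against 11.6 and 7.35 TPM in cjESCs, with a difference of 0.92 ± 0.28 (adjusted p = 0.103, limma).

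In the rest of the panel, calls in the induction fell on stored transcripts and on KHDC3L. In BLSE at 96 h against cjESCs, KHDC3L fell from 865 and 584 TPM to 48.2 and 48.5 TPM, DPPA3, a maternal factor that protects methylation in the zygote, from 45.1 and 43.4 TPM to 1.11 and 1.76 TPM, and YBX2 from 6.32 and 11.4 TPM to 0.73 and 1.54 TPM. YBX2 lost this call without BLSE 96 h replicate 1 (−1.91), without cjESC in DK20FA replicate 2 (−1.80) and when only the 4 libraries were fitted. In SOX17 + BLSE against BLSE, KHDC3L rose by 2.62 ± 0.25 and DPPA3 by 2.96 ± 0.24 (adjusted p = 2.9e-11 and 6.7e-13, limma), again between unsorted and sorted cells. YBX2 fell in BLSE + IWR1 at 96 h, with BMS493 and at day 6, from 24.7 and 15 TPM in cjESCs to 1.38 and 2.43 TPM at day 6 (difference −2.82 ± 0.29, adjusted p = 1.8e-10, limma). Its level in xrOvaries at days 40 and 70, between 23.6 and 33.6 TPM, was in or above the range of these cjESCs.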

How the data were processed

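The authors aligned directional single-end reads of poly(A) RNA to the marmoset genome Callithrix_jacchus_cj1700_1.1 with STAR, filtered the alignments by mapping quality and estimated abundance with RSEM. TPM of 14812 genes were deposited by the authors, and their sum per library ranged from 790300 to 839203. TPM were not taken back to counts, depth is unknown, and no 2 libraries were identical (0 pairs).

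The mean log2(TPM + 1) of each condition was fitted with limma 3.58.1 in R 4.3.3 over all 54 libraries (27 residual degrees of freedom, intensity trend), for the 11197 genes that reached 1.5 in 1 library or more. Two-sided p-values of contrasts were adjusted over these genes by the Benjamini-Hochberg method. The test in the study needs counts and was replaced. Its thresholds of 4-fold and an adjusted p under 0.01 were kept, whereas its minimum of 1.5 for the mean log2 CPM was applied to the mean log2(TPM + 1), a different quantity. Between 2 and 2 libraries, an exact permutation test cannot go below p = 0.33. On data of 10955 genes simulated for day 70 against day 6, 200 of 200 genes changed 8-fold were called and 0 of 10755 unchanged ones. The changed genes were drawn only from genes with a day 6 level above that of NOBOX, ZP3, TBPL2 and YBX2. Recovery of genes as weakly expressed as these was not tested. Likeness is Pearson's r over condition means among tested genes with a symbol.

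Named were the listed genes, genes of fixed lists that were called or among the 3 highest, and the 5 genes most like OOEP and FOXR1. The members and lists were chosen with earlier results of these data known. Genes of the lists absent from the table were not analysed here, and promoter motifs were not searched. Neighbouring genes come from the RefSeq order of calJac240_pri. Alternatives were a pseudocount of 0.1, no filter, quantile normalization, no trend, the replicate number as a block, a fit of the compared libraries alone, median-ratio scaling, an adjusted p under 0.05 alone, leaving out each library, and Spearman's rho for likeness.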

Additional observations from a re-analysis of the deposited data

Results flagged for a closer look

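The change over 96 h differed between BLSE + IWR1 and SOX17 + BLSE, by a test of the difference itself at an adjusted p under 0.05 (limma), for 3 of the 15 panel genes tested that reached the log2 value of 1.5 outside xrOvaries. The share of all genes under that limit was not counted. MIOX differed by 1.43 on the log2 scale (adjusted p = 0.0088). SOHLH2 differed by 1.23 (adjusted p = 7.5e-05), with 116 and 88.3 TPM in cjESCs in DK20FA but 46 and 40.5 TPM in PESFA, and between 74.4 and 86.5 TPM at 96 h of both inductions. TBPL2 differed by −1.89 (adjusted p = 0.0037), with 1.78 and 4.46 TPM at 96 h of SOX17 + BLSE and 1.17 and 0.35 TPM at 96 h of BLSE + IWR1. The transgenes, the medium and the pre-treatment cannot be told apart from the induction in this comparison.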

How the results depend on the processing

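No direction turned under any alternative run for a gene called in the main fit or in that alternative. Turns of genes called in neither were not recorded. Counts of called panel genes moved by more than 1.5 times mainly with an adjusted p under 0.05 alone. The share of all genes under that limit was not counted. Against day 6 the panel counts moved to 7 (day 20), 8 (day 40) and 6 (day 70), and for day 40 against day 20 to 3. At 96 h against cjESCs they moved to 5 (SOX17 + LSE), 7 (SOX17 + BLSE), 8 (BLSE), 6 (BLSE + IWR1) and 6 (with BMS493). At day 6 they moved to 7 and 1. Between conditions at 96 h they moved to 7 (SOX17 + BLSE against BLSE, sorted against unsorted) and 4 (SOX17 + LSE against SOX17 + BLSE). For PESFA against DK20FA they moved to 2, for the difference of changes to 3, and at 48 h to 7, 7, 3, 3 and 2. A fit of only the libraries compared gave 0 calls at day 20, at 96 h and at 48 h of BLSE + IWR1. A pseudocount of 0.1 gave 1 call in SOX17 + BLSE at 96 h and 1 in SOX17 + LSE against it, and both median-ratio scaling and quantile normalization gave 1 in the former. Leaving out 1 library gave between 0 and 2 calls at day 20, 0 and 1 at day 40 against day 20, 0 and 1 at 96 h of SOX17 + BLSE, in SOX17 + LSE relative to it, in the difference of changes and for SOX17 at 48 h, and 1 and 2 at 96 h with BMS493 and at 48 h of BLSE + IWR1. The cause of these moves was not tested. Median-ratio scaling moved the median difference of all genes at day 70 from −0.20 to 0 and in SOX17 + BLSE against BLSE at 96 h from 0.24 to 0. With Spearman's rho, 1 of the 5 genes most like OOEP over all conditions was shared with Pearson's r, 2 of 5 outside xrOvaries, and 0 of 5 for FOXR1 over all conditions. Unknown depth limits what a level of 0 means.

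Replicate numbers were not taken to pair the libraries, since deviations of same-numbered libraries correlated across genes between −0.06 and 0.16. When the fit held the replicate number as a block, panel calls were 1 at day 20, 3 at day 40, 3 at day 70 and 3 in BLSE at 96 h, and no call changed.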
